A study of Mus musculus with 34 samples.

Results

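*Ms4a7*, *Ms4a6b*, *Ms4a6c* and *Ms4a6d* are 4 genes of the membrane-spanning 4-domains subfamily A, and they were taken by name from the 16389 genes of an RNA-seq table of mouse brain. They were chosen because their levels in GFP-BM REPOP brains had been seen to differ from those in WT CON brains, so that this difference is described below without a test. The table holds 5 genes whose symbol begins with Ms4a, and the remaining one, *Ms4a15*, is described with the relatives of the family. The study asked what bone marrow-derived myeloid cells that replace microglia do to the brain over the long term.

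All mice were male C57BL/6. The sources differ on their age at the start, which the methods give in general as 1.5 months and the outline of the transplant experiment as 4 months. WT CON mice, labelled Vehicle, were not irradiated. GFP-BM CON mice, labelled Irradiation, received 1000 cGy to the whole body and then bone marrow of donors that carry a CAG-EGFP transgene, in which a promoter active in most cells drives the green fluorescent protein. GFP-BM REPOP mice, labelled Irradiation + PLX3397, received the same irradiation and marrow and, 3.5 months later, PLX3397, an inhibitor of the receptor CSF1R on which microglia depend, at 600 ppm in the diet for 14 days, followed by 6 months of recovery. Each library holds RNA of 1 dissected region and not of sorted cells. The cortex had 3 libraries of WT CON and 4 of either transplanted group, the hippocampus 4 of each group, and the thalamus, dissected together with the striatum, 4 of WT CON, 3 of GFP-BM CON and 4 of GFP-BM REPOP. Both transplanted groups share the irradiation and the marrow, and neither carries the inhibitor alone.

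Members of the Ms4a family are small proteins that cross the membrane in 4 passes, much like the B cell antigen CD20, which is the product of *Ms4a1*, and the chain of the high-affinity IgE receptor that *Ms4a2* encodes in mast cells. *Ms4a7* and the *Ms4a6* genes are known as genes of monocytes and macrophages. In the brain *Ms4a7* is widely used to tell macrophages of the brain borders and cells of marrow origin from microglia, which carry little of it. The *Ms4a6* genes of the mouse are close copies of one another that correspond to the single human *MS4A6A*.

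The 4 genes lie in 1 cluster on chromosome 19 (RefSeq annotation of GRCm38.p6, the assembly that the submitters' notes call mm10), which holds 21 Ms4a genes over 679 kb. *Ms4a7* (Entrez 109225) occupies bases 11321039 to 11336146 on the minus strand. *Ms4a6c* (73656) follows at 11469353 to 11487182 and *Ms4a6b* (69774) at 11518559 to 11530403, both on the plus strand. *Ms4a6d* (68774) lies at 11586606 to 11604804 on the minus strand, so that the 4 genes span 284 kb. The other 16 genes of the cluster, among them *Ms4a1* and *Ms4a2*, have no row in the table and were not analysed here. The longest complete coding sequences in GENCODE vM21 are 804 bases for *Ms4a7*, 735 for *Ms4a6b*, 654 for *Ms4a6c* and 744 for *Ms4a6d*. Aligned end to end, *Ms4a6b* and *Ms4a6c* shared 85.3% of their aligned coding bases, *Ms4a6b* and *Ms4a6d* 81.3%, and *Ms4a6c* and *Ms4a6d* 79.1%, while *Ms4a7* shared between 64.1% and 66.2% with each of them. The longest run of identical transcript bases was 96 between *Ms4a6b* and *Ms4a6c* and at most 12 between *Ms4a7* and any *Ms4a6* gene. Reads were paired and 150 bases long, and how the authors counted reads that match several genes, or whether they counted by strand, is not given in the sources used here, so that the split of reads among the *Ms4a6* genes is uncertain to that extent.

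RefSeq promoter windows, from 250 bases before a gene's start to 50 bases after it, were found for 3 of the 4 genes. They are shown because *Ms4a6b* and *Ms4a6c* share sequence just before their starts and *Ms4a7* does not. Over the 34 libraries, r was 0.86 between *Ms4a6b* and *Ms4a6c*, 0.92 between *Ms4a7* and *Ms4a6c* and 0.88 between *Ms4a7* and *Ms4a6b*. These values include the differences between groups, on which the genes were chosen. Over the deviations from the group means, r was 0.42, 0.39 and 0.33 in the same order of pairs. Whether the shared sequence has a part in the levels was not tested. In the windows of *Ms4a6c* (chr19:11469118-11469417, plus strand) and *Ms4a6b* (chr19:11518309-11518608, plus strand) the capitals mark the longest run of bases found in both, which is 48 bases long. In the window of *Ms4a7* (chr19:11336097-11336396, minus strand) the capitals mark GAGGAA, 1 form of the sequence read by PU.1.
Ms4a6c: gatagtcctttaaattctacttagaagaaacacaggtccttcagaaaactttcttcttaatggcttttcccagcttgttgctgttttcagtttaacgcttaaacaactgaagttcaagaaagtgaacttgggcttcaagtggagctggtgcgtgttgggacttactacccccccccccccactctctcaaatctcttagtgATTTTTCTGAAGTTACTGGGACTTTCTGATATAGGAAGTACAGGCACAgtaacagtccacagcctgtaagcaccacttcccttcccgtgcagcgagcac
Ms4a6b: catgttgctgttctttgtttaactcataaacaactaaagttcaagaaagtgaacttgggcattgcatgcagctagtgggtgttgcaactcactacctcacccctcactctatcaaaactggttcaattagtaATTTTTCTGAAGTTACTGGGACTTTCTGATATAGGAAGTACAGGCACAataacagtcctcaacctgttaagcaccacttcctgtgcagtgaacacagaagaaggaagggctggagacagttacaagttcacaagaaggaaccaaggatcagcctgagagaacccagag
Ms4a7: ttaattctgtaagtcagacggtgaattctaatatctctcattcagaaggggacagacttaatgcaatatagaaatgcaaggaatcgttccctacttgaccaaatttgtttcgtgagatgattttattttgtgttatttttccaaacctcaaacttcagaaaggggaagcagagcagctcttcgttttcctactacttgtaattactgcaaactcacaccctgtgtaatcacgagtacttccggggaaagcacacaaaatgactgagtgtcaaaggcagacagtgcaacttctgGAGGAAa
The shared run begins 49 bases before the start of *Ms4a6c* and 118 bases before that of *Ms4a6b*. Over the whole window 64% of the bases of this pair were identical after alignment, against 52% for *Ms4a7* with *Ms4a6c* and 53.3% for *Ms4a7* with *Ms4a6b*. Of 4 motifs searched on both strands, GAGGAA occurred once, in this *Ms4a7* window, and is present in 28.3% of 32851 promoter windows of this length. TGANTCA, the AP-1 sequence, occurred once, in the window of a second annotated start of *Ms4a7*, and is present in 7.81% of all windows. The joint motif of PU.1 and IRF factors (2.72% of all windows) and TATAAA (13.6%) were not among the letters of these windows. Shorter or variant forms of these motifs were not searched, so that a window without a hit may still hold one.

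The recovered depth was 17085018 to 26010509 reads per library, and no pair of libraries of a group held identical values. The region labels were checked with 6 marker genes each. In 3 hippocampus libraries, WT CON replicate 2 and GFP-BM REPOP replicates 1 and 4, the hippocampal markers summed to 48.4, 36.5 and 52.1 FPKM, within the range of the cortex libraries (32.6 to 57.1), whereas the other hippocampus libraries had 89.4 to 232. The differences between groups, sums and parts in the hippocampus are therefore also given without these 3 libraries. Striatal markers summed to 1231 FPKM in GFP-BM REPOP hippocampus replicate 4, against 135 to 645 in the thalamus libraries. They summed to 325 to 401 in WT CON hippocampus replicates 1 to 3 and 79.6 to 132 in GFP-BM CON hippocampus. Thalamic markers summed to 50.7 and 52.3 in GFP-BM REPOP cortex replicates 1 and 2, and to 13.9 to 21.6 in the other cortex libraries. The part of these in the levels was not tested. Markers of the choroid plexus (6 of 6 genes in the table) summed to 34.4 to 6504 FPKM in WT CON, 50.3 to 6371 in GFP-BM CON and 91.6 to 290 in GFP-BM REPOP hippocampus libraries.

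*Ms4a7* was the highest of the 4 genes in every GFP-BM REPOP library and in no WT CON library. In the cortex the WT CON libraries held 0.0955, 0.185 and 0.262 FPKM, the GFP-BM CON libraries 0.97, 0.487, 0.986 and 0.411, and the GFP-BM REPOP libraries 4.59, 4.16, 3.39 and 4.55. The 3 groups did not overlap there, and the GFP-BM CON libraries fell into a higher and a lower pair. In the hippocampus the values were 0.626, 0.259, 0.233 and 0.368 in WT CON, 0.527, 2.5, 0.524 and 3.03 in GFP-BM CON, and 2.29, 5.42, 3.37 and 4.58 in GFP-BM REPOP libraries. Replicates 2 and 4 of GFP-BM CON reached the range of GFP-BM REPOP, and replicates 1 and 3 lay within that of WT CON. In these libraries, in the order of replicates 1 to 4, the choroid plexus markers summed to 50.3, 1127, 4909 and 6371 FPKM and the border macrophage markers to 5.47, 10, 5.41 and 10.5, and the part of either in the *Ms4a7* values was not tested. In the thalamus the values were 0.341, 0.46, 0.335 and 0.0489 in WT CON, 1.2, 1.04 and 0.94 in GFP-BM CON, and 5.78, 4.26, 5.23 and 7.18 in GFP-BM REPOP libraries, again with no overlap between groups. WT CON levels rest on few reads, between 1 and 14 per library, against 8 to 56 in GFP-BM CON and 39 to 148 in GFP-BM REPOP libraries. The single read in WT CON thalamus replicate 4 has an exact Poisson 95% interval of 0.0253 to 5.57 reads, which covers counting error only.

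*Ms4a6c* had the same order of groups in each region, at lower levels. In the cortex it was at 0.175, 0.127 and 0.26 FPKM in WT CON, 0.464, 0.47, 0.276 and 0.352 in GFP-BM CON, and 1.77, 1.18, 1.5 and 2.46 in GFP-BM REPOP libraries, with no overlap among the 3 groups. In the hippocampus it was at 0.123, 0.331, 0.447 and 0.24 in WT CON, 0.362, 1.1, 0.371 and 0.864 in GFP-BM CON, and 1.37, 1.78, 1.09 and 2.03 in GFP-BM REPOP libraries. Replicates 2 and 4 were again the highest of GFP-BM CON, and replicate 2 just passed the lowest GFP-BM REPOP library. In the thalamus it was at 0.441, 0.21, 0.211 and 0.224 in WT CON, 0.732, 0.954 and 0.737 in GFP-BM CON, and 2.23, 1.6, 2.25 and 2.95 in GFP-BM REPOP libraries, without overlap.

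*Ms4a6b* differed less between the transplanted groups. In the cortex it was at 0.372, 0.103 and 0.341 FPKM in WT CON, 0.859, 0.904, 0.701 and 0.543 in GFP-BM CON, and 1.38, 1.06, 1.45 and 1.76 in GFP-BM REPOP libraries. In the hippocampus it ranged from 0.23 to 0.398 in WT CON, from 0.557 to 0.995 in GFP-BM CON and from 0.983 to 1.7 in GFP-BM REPOP libraries, so that only the transplanted groups touched. In the thalamus it ranged from 0.163 to 0.474, from 0.324 to 0.742 and from 0.92 to 1.85, with an overlap of WT CON and GFP-BM CON.

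*Ms4a6d* differed least. In the cortex it ranged from 0.509 to 0.697 FPKM in WT CON and from 0.413 to 0.844 in GFP-BM CON, and was at 0.719, 0.712, 0.799 and 1.67 in GFP-BM REPOP libraries. Without the last of these, the GFP-BM REPOP libraries lay just above the WT CON range and within that of GFP-BM CON. In the hippocampus it ranged from 0.51 to 0.957, from 0.588 to 1.61 and from 0.814 to 1.57, and all 3 groups overlapped. In the thalamus it ranged from 0.467 to 0.735, from 0.526 to 1.19 and from 1.02 to 1.56, and GFP-BM REPOP was clear of WT CON but not of GFP-BM CON.

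**Figure D1:**
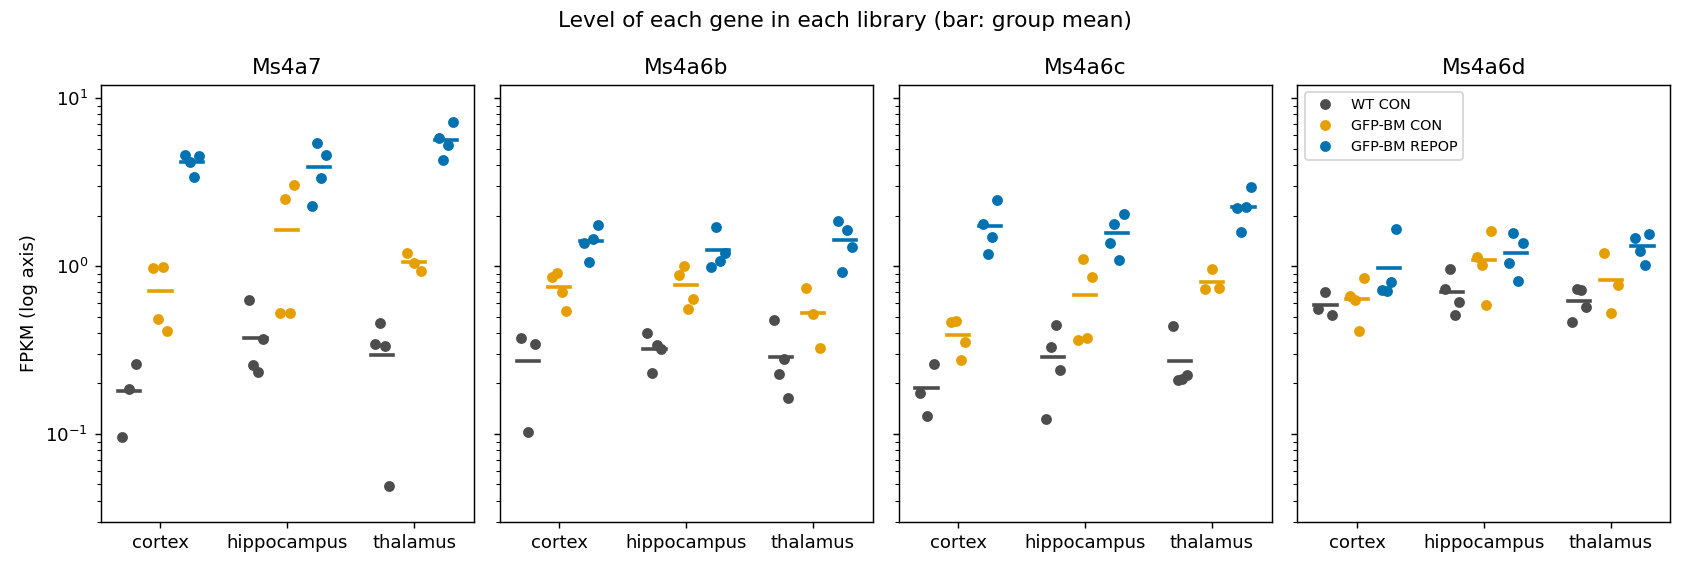
FPKM of each of the 4 genes (log axis) in each library, by region and group, with a bar at the group mean. The blue GFP-BM REPOP points of *Ms4a7* lie between 2.29 and 7.18 FPKM and the grey WT CON points between 0.0489 and 0.626, whereas the groups of *Ms4a6d* lie close together.

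FPKM is per length of transcript, so that the levels of the 4 genes can be set side by side within a library. *Ms4a6d* was the highest of the 4 in 10 of 11 WT CON libraries, with a median share of 45% of their summed FPKM. *Ms4a7* was the highest in 0 of 11 WT CON libraries, in 7 of 11 with transplant alone (GFP-BM CON) and in 12 of 12 with repopulation (GFP-BM REPOP), and its median share was 19.1%, 32.8% and 51.7%. The share of *Ms4a6d* had a median of 26.2% in GFP-BM CON and 12.9% in GFP-BM REPOP libraries. *Ms4a6c* varied little in share, with medians of 15.6%, 18.2% and 21%. From WT CON over GFP-BM CON to GFP-BM REPOP, with SDs over the libraries of each group, the summed FPKM of the cortex was 1.23 ± 0.133 (n = 3), 2.49 ± 0.34 (n = 4) and 8.29 ± 1.57 (n = 4). Hippocampal sums were 1.68 ± 0.175, 4.18 ± 2.01 and 7.92 ± 2.28 (n = 4 each). Thalamic sums were 1.48 ± 0.322 (n = 4), 3.22 ± 0.568 (n = 3) and 10.6 ± 2.09 (n = 4).

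**Figure D2:**
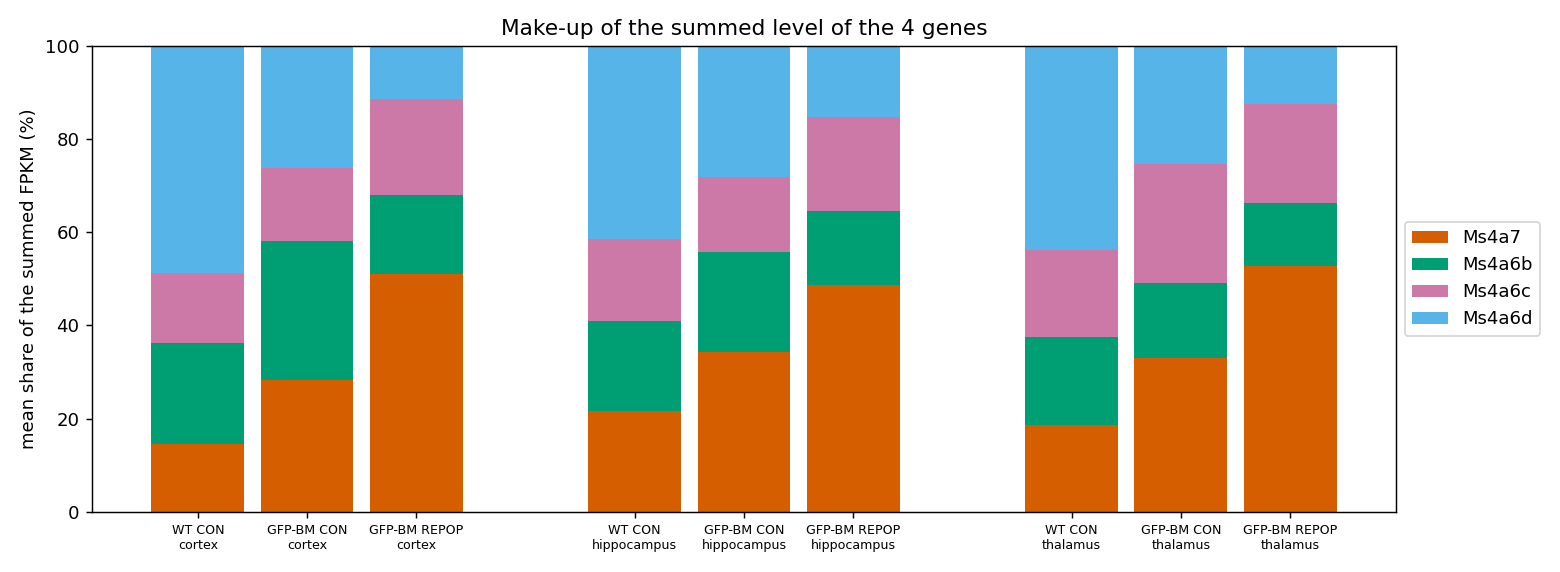
Mean share (%) of each gene in the summed FPKM of the 4 genes, for each group and region as stacked bars from 0 to 100. The orange share of *Ms4a7* goes from 14.6% to 51% between WT CON and GFP-BM REPOP cortex, and the light blue share of *Ms4a6d* from 48.7% to 11.4%.

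GFP-BM REPOP libraries were set against WT CON as the comparison that had picked out these genes, and all 4 were higher in all 3 regions. The ratio of mean FPKM for *Ms4a7* was 23.1 in cortex, 10.5 in hippocampus and 18.9 in thalamus. For *Ms4a6c* it was 9.23, 5.49 and 8.32, for *Ms4a6b* 5.19, 3.86 and 4.97, and for *Ms4a6d* 1.66, 1.71 and 2.12. On the scale of log2(FPKM + 0.1), which understates the change of low genes, the difference for *Ms4a7* was 3.96 (standard error 0.30), 3.09 (0.54) and 3.98 (0.37) in the same order of regions. The median over the 4 genes was 2.37, 1.90 and 2.34, where the median over all 14710 genes tested was 0.02, 0.00 and -0.05. Groups did not overlap for 4 of 4 genes in the cortex, 3 of 4 in the hippocampus and 4 of 4 in the thalamus, where 4.89%, 2.12% and 11.9% of all genes tested had GFP-BM REPOP entirely higher. As the genes were chosen on this contrast, nothing is read from these counts. Testing required 1 FPKM or more in 3 or more libraries, and all 4 genes passed, but mainly through the GFP-BM REPOP libraries. No WT CON library reached 1 FPKM for any of them, and *Ms4a6b* and *Ms4a6c* would not have passed without GFP-BM REPOP. In bulk tissue, fewer or more cells of a type and less or more RNA per cell cannot be told apart.

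The comparison of GFP-BM CON with WT CON asks what irradiation and marrow transplant do without the inhibitor, and it shares the WT CON libraries with the contrast that chose the genes. The mean of each gene was higher in GFP-BM CON in each region, but no gene passed the test, limma-trend with Benjamini-Hochberg adjustment over all genes tested at 0.05. For *Ms4a7* in the cortex the fitted difference was 2.82-fold (standard error 0.30 on the log2 scale, adjusted p = 0.074 from limma). Hippocampal *Ms4a7* differed by 1.58 on the log2 scale (standard error 0.54, adjusted p = 0.12 from limma) and thalamic *Ms4a7* by 1.70 (standard error 0.39, adjusted p = 0.069 from limma). *Ms4a6c* differed by 0.78, 0.95 and 1.32 (adjusted p = 0.2, 0.17 and 0.058 from limma), *Ms4a6b* by 1.27, 1.03 and 0.71 (adjusted p = 0.12, 0.075 and 0.26), and *Ms4a6d* by 0.08, 0.52 and 0.31 (adjusted p = 0.94, 0.33 and 0.44). The count of genes that passed was 0 of 4 in each region, with voom on the recovered reads as well. An unadjusted p under 0.05 was found for 3, 3 and 2 of the 4 (cortex, hippocampus, thalamus). In either direction it was found for 2347, 3517 and 3045 of all 14710 genes tested. Over all genes tested, 0.211% were called higher in the cortex and 0% in the hippocampus and the thalamus. The groups did not overlap for *Ms4a7*, *Ms4a6b* and *Ms4a6c* in the cortex, for *Ms4a6b* in the hippocampus and for *Ms4a7* and *Ms4a6c* in the thalamus, which is 3, 1 and 2 of 4 genes, where 11.5%, 5.42% and 14.6% of all genes did so in that direction.

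Some calls in this contrast changed with the fit or the libraries, and the cause was not tested. With all 9 groups in a single fit, 3 of the 4 genes passed in the hippocampus and 2 in the thalamus. Leaving out WT CON thalamus replicate 1 let *Ms4a7* and *Ms4a6c* pass in the thalamus, and leaving out GFP-BM REPOP cortex replicate 1 let *Ms4a7* pass in the cortex. The share of all genes called in these fits is not given here, so that nothing is read from these counts about the 4 genes.

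GFP-BM REPOP was compared with GFP-BM CON to see what the CSF1R inhibitor and the repopulation after it add to irradiation and marrow. *Ms4a7* rose in the cortex. *Ms4a6c* had an adjusted p under 0.05 there as well, but it entered the test only through GFP-BM REPOP libraries, in which it is high, so that its values are a description. Neither of the other 2 genes passed there, and no gene of the 4 passed in the other regions. *Ms4a7* went from 0.713 ± 0.307 (SD, n = 4) to 4.17 ± 0.554 FPKM (SD, n = 4), a log2 difference of 2.47 (standard error 0.28, adjusted p = 0.011 from limma). *Ms4a6c* went from 0.39 ± 0.0938 (SD, n = 4) to 1.73 ± 0.547 FPKM (SD, n = 4), a log2 difference of 1.87 (standard error 0.25, adjusted p = 0.028 from limma). Called higher there were 6 genes, 0.0408% of all genes tested, these included, and the contrast shares its GFP-BM REPOP libraries with the one that chose them. *Ms4a6b* differed by 0.83 (adjusted p = 0.88 from limma) although its groups did not overlap, and *Ms4a6d* by 0.49 (adjusted p = 1). The *Ms4a6c* call held in 2 and the *Ms4a7* call in 9 of the 11 fits that left out 1 library, and neither held without GFP-BM CON replicate 2 or without GFP-BM REPOP replicate 4, where the *Ms4a7* difference was 2.34 and 2.42.

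In the thalamus the differences between the transplanted groups were about as large, yet no gene passed. *Ms4a7* went from 1.06 ± 0.131 (SD, n = 3) to 5.61 ± 1.22 FPKM (SD, n = 4), a log2 difference of 2.28 (standard error 0.39, adjusted p = 0.46 from limma). *Ms4a6c*, *Ms4a6b* and *Ms4a6d* differed by 1.36, 1.29 and 0.66 (adjusted p = 0.82, 1 and 1 from limma). All 4 had an unadjusted p under 0.05, as had 139 of all 14710 genes tested in either direction, and 0% of all genes tested were called. *Ms4a6b* and *Ms4a6c* entered the test only through GFP-BM REPOP libraries, in which they are high. Their p values in the thalamus and the hippocampus, and the overlap of their groups given below, are therefore a description. *Ms4a7* passed when the fit held only the 2 groups compared, with a pseudocount of 1, and without WT CON thalamus replicate 4. The share of all genes called in those fits is not given here. In the hippocampus the differences were 1.52 for *Ms4a7*, 1.20 for *Ms4a6c*, 0.63 for *Ms4a6b* and 0.17 for *Ms4a6d* (adjusted p = 0.33, 0.31, 0.41 and 0.83 from limma). There 3 of 4 had an unadjusted p under 0.05, as had 1716 of all genes tested in either direction. In the hippocampus 0.0272% of all genes tested were called higher. By voom 0 of 4 passed in either region. The groups did not overlap for *Ms4a7*, *Ms4a6b* and *Ms4a6c* in the cortex and the thalamus and for 0 of 4 genes in the hippocampus, where 1.41%, 2.32% and 4.12% of all genes tested were entirely higher. Without the 3 hippocampus libraries low in hippocampal markers, *Ms4a7*, *Ms4a6b*, *Ms4a6c* and *Ms4a6d* differed by 1.71, 0.78, 1.07 and 0.13 between the transplanted groups. In that order they differed by 1.47, 0.91, 1.03 and 0.66 between GFP-BM CON and WT CON, and 0 of 4 genes passed in either comparison. Their ratios of GFP-BM REPOP to WT CON means were 10.7, 3.94, 5.3 and 1.93, and the summed FPKM of WT CON was 1.65 ± 0.2 (SD, n = 3), against 8.4 ± 2.92 for GFP-BM REPOP (SD, n = 2).

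**Figure D3:**
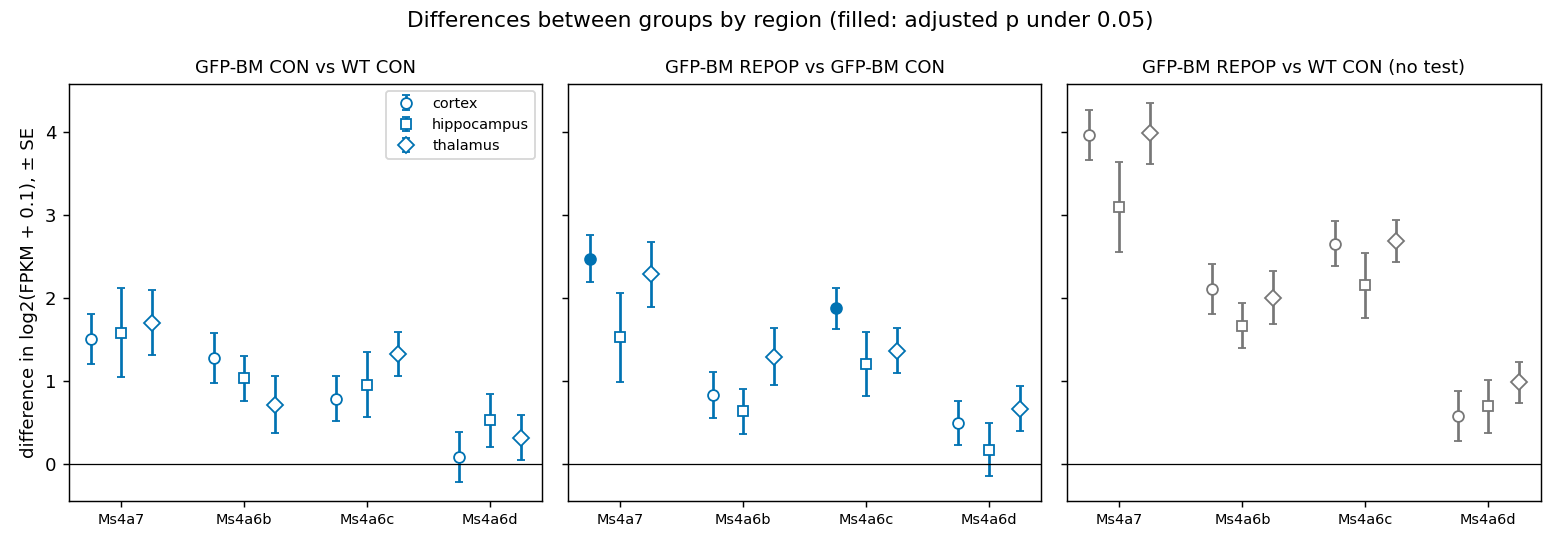
Difference in log2(FPKM + 0.1) with its standard error for each gene in each of the 3 contrasts, with circles for the cortex, squares for the hippocampus and diamonds for the thalamus, and filled symbols for an adjusted p under 0.05. *Ms4a7* and *Ms4a6c* in the cortex, at 2.47 and 1.87, are filled in the contrast of GFP-BM REPOP with GFP-BM CON, and the contrast of GFP-BM REPOP with WT CON was not tested. The filled symbol of *Ms4a6c* is a description, since this gene entered the test only through GFP-BM REPOP libraries.

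With all libraries, the mean FPKM of GFP-BM CON lay between those of the other groups for each gene and region. Of the difference in mean FPKM between WT CON and GFP-BM REPOP, the part already present in GFP-BM CON was 13.3%, 36% and 14.4% for *Ms4a7* (cortex, hippocampus, thalamus). For *Ms4a6c* it was 13.2%, 30.4% and 27%. For *Ms4a6b* it was larger, at 42.1%, 48.5% and 21.3%. For *Ms4a6d* it was 12.9%, 76.8% and 29.3% of a difference of at most 0.697 FPKM, and single libraries decided it. The cortex value was 32.2% without GFP-BM REPOP replicate 4, 32.3% without GFP-BM CON replicate 3, -4.75% without GFP-BM CON replicate 4, and 23.7% and 3.17% without WT CON replicates 2 and 3. The *Ms4a6d* part was 42.1% in the hippocampus without GFP-BM CON replicate 4. It was 110% there without GFP-BM CON replicate 3 and 102% without GFP-BM REPOP replicate 2, so that the GFP-BM CON mean passed that of GFP-BM REPOP. In the thalamus the *Ms4a6d* part was 3.45% and 50.9% without GFP-BM CON replicates 1 and 2. Leaving out 1 GFP-BM CON library also brought *Ms4a7* in the hippocampus to 23% (replicate 4) or 46.6% (replicate 3). *Ms4a6c* in the hippocampus came to 19.3% (replicate 2) or 38.6% (replicate 1) in this way, and *Ms4a6b* in the thalamus to 11.9% (replicate 1) or 30.3% (replicate 3). Without the 3 hippocampus libraries low in hippocampal markers, the hippocampal parts of *Ms4a7*, *Ms4a6b*, *Ms4a6c* and *Ms4a6d* were 31.1%, 40%, 34.8% and 81.5%.

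No difference between regions passed the test for these genes as first fitted, and 1 alternative given below made calls. The hippocampus groups here include the 3 libraries low in hippocampal markers, WT CON replicate 2 and GFP-BM REPOP replicates 1 and 4. The differences between regions without them are not given here. Between regions within WT CON, the 12 differences of the 4 genes lay between -0.33 and 0.73 on the log2 scale, with standard errors of 0.29 to 0.48 and adjusted p values of 0.22 or more from limma. Within GFP-BM REPOP they lay between -0.18 and 0.55, with standard errors of 0.29 to 0.44, also at 0.22 or more. None of these 24 had an unadjusted p under 0.05, whereas 36.9%, 30% and 17.7% of all genes tested were called within WT CON (hippocampus against cortex, thalamus against cortex, thalamus against hippocampus) and 17.5%, 14.8% and 34.3% within GFP-BM REPOP. Under quantile normalization 3 of the 4 genes were called between the hippocampus and the cortex of WT CON. The share of all genes called under that setting is not given here, and as first fitted it was 36.9% for this pair of regions. Whether the contrasts themselves differed between regions was tested as well. The 12 differences for GFP-BM CON against WT CON lay between -0.57 and 0.56 and the 12 for GFP-BM REPOP against GFP-BM CON between -0.95 and 0.76, with standard errors of up to 0.68, and none passed or had an unadjusted p under 0.05, where 0% of all genes were called for the former in each pair of regions and 0.177%, 0% and 0.0272% for the latter. The larger *Ms4a7* difference between the transplanted groups in the cortex than in the hippocampus is therefore not shown to be a difference between regions, nor is it shown that the regions are alike.

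Each label carries a number, taken here as the mouse of origin, so that each mouse gave 2 or 3 regions. Animal 4 had the highest *Ms4a6c* level of the GFP-BM REPOP animals in all 3 regions, at 2.46, 2.03 and 2.95 FPKM in the cortex, hippocampus and thalamus. For *Ms4a7* the order of animals changed from region to region. Among GFP-BM CON animals, numbers 6 and 9 had the lowest *Ms4a7* in the cortex (0.487 and 0.411) and the highest in the hippocampus (2.5 and 3.03), and numbers 7 and 18 the reverse (0.986 and 0.97, then 0.524 and 0.527). A single estimate of the correlation within animals over all genes was -0.04.

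**Figure D4:**
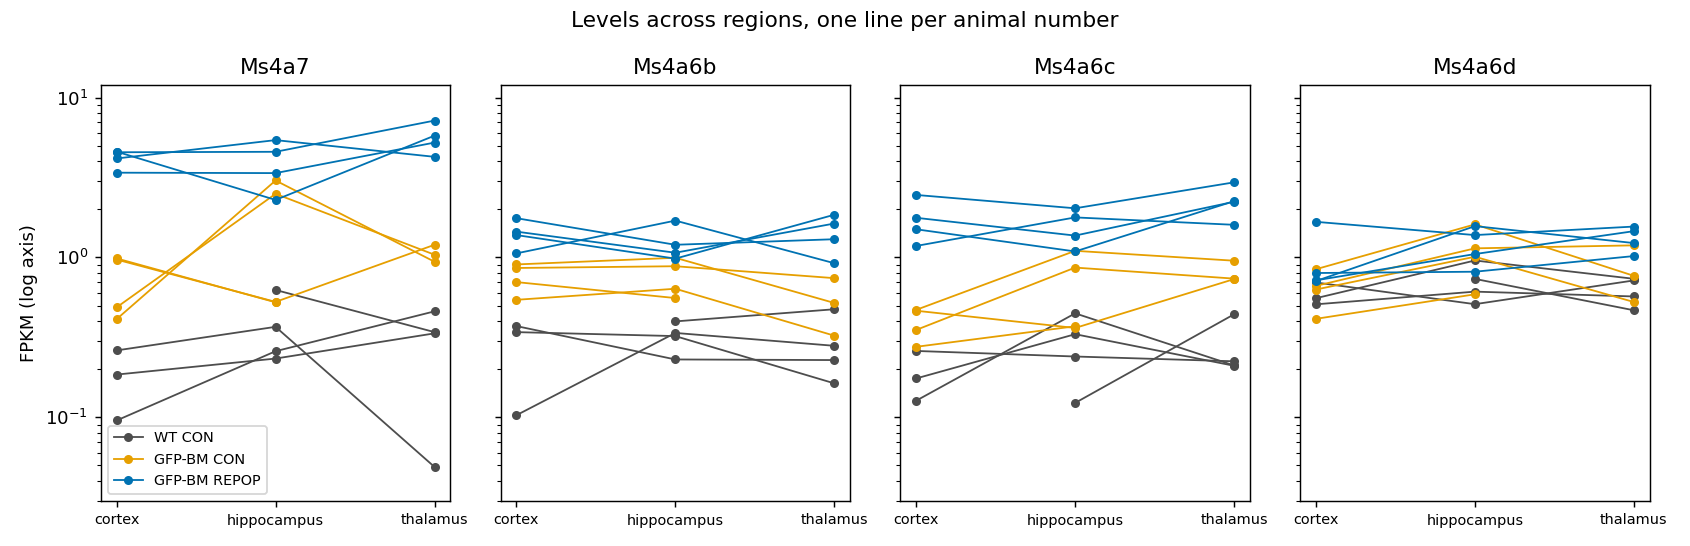
FPKM (log axis) of each gene in the cortex, hippocampus and thalamus, with 1 line per animal number, coloured by group. The GFP-BM CON lines of *Ms4a7* cross between the cortex and the hippocampus, and the GFP-BM REPOP lines of *Ms4a6c* keep animal 4 on top at 2.46, 2.03 and 2.95.

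The levels were then set against genes that both microglia and marrow-derived macrophages express, since the amount of myeloid RNA may differ between libraries. None of the 14 genes tested of a pan-myeloid list of 15 was called higher in any of the 9 contrasts. In the contrasts that include GFP-BM CON, 0% to 0.211% of all genes tested were called higher, so that this says little about the list. *Csf1r*, the receptor that PLX3397 blocks, was called lower than in WT CON in the cortex of GFP-BM CON (-0.74 on the log2 scale) and of GFP-BM REPOP (-0.40). The median of the list lay between -0.29 and 0.23 over the contrasts. The index, the mean log2 level of the 15 genes, was 3.18 ± 0.07 (SD, n = 3) in WT CON cortex, 3.00 ± 0.02 (SD, n = 4) after transplant alone and 3.21 ± 0.16 (SD, n = 4) after repopulation. *Ms4a7* minus the index was -5.05 ± 0.47 in WT CON cortex, -3.38 ± 0.59 after transplant alone and -1.12 ± 0.17 in GFP-BM REPOP (log2 units, SD). Relative to the index the median difference of the 4 genes from WT CON to GFP-BM CON was 1.20, 0.93 and 1.28 (cortex, hippocampus, thalamus), and from GFP-BM CON on to GFP-BM REPOP it was 1.15, 0.86 and 1.10. With *Csf1r* alone as the index the first 3 values were 1.77, 1.51 and 2.04.

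**Figure D5:**
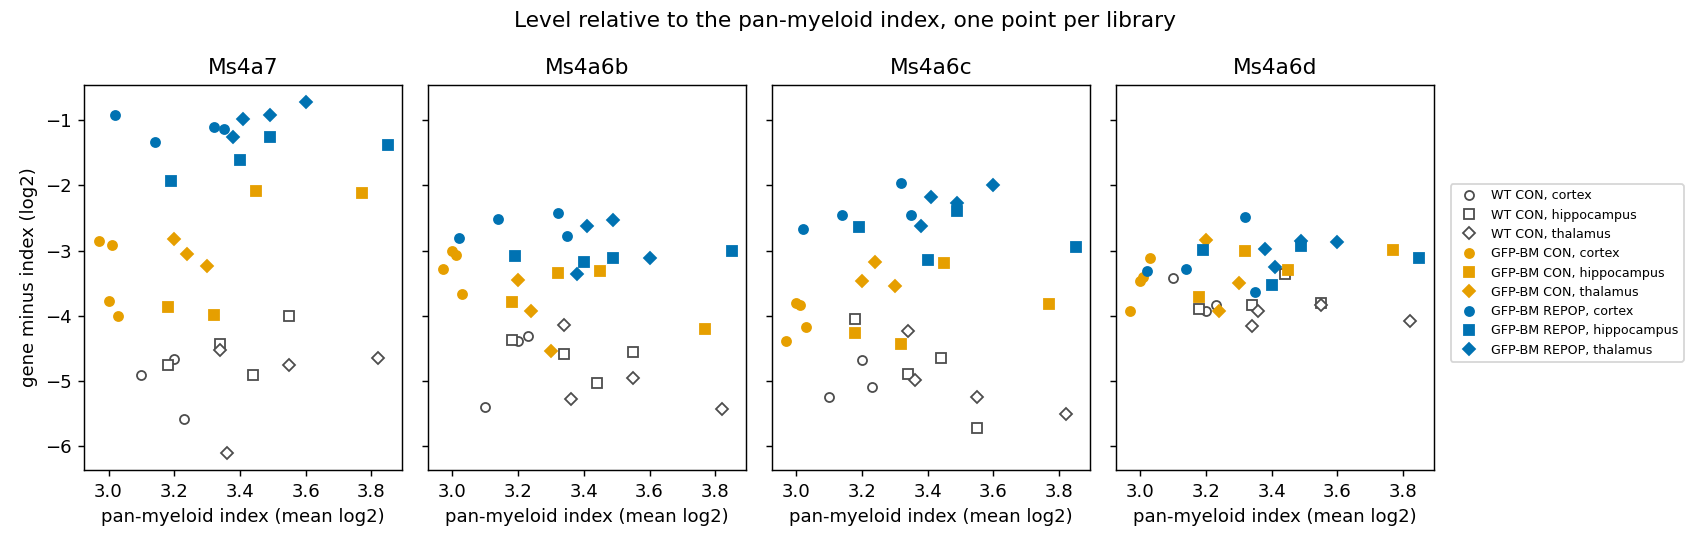
Log2 level of each gene minus the pan-myeloid index against that index, 1 point per library, with colours for groups and shapes for regions. The index spans 2.97 to 3.85 in all groups, and the blue points of *Ms4a7* lie from -1.93 to -0.73, above every grey point, the highest of which is at -4.01.

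Other cell types were followed by their marker lists. The 10 microglia markers, such as *P2ry12* and *Tmem119*, summed to 89.4 to 105 FPKM in WT CON, 79.7 to 86 in GFP-BM CON and 60.9 to 68.9 in GFP-BM REPOP cortex, to 97.7 to 136, 92 to 110 and 66.1 to 96.6 in the hippocampus, and to 92.2 to 134, 83.4 to 85.3 and 72.3 to 77.7 in the thalamus. The border macrophage list (7 of 8 genes in the table) summed to 3.74 to 10.2, 5.25 to 6.21 and 7.03 to 23.3 FPKM in the cortex, to 5.08 to 33.5, 5.41 to 10.5 and 10.4 to 37.3 in the hippocampus, and to 5.87 to 14, 6.7 to 7.92 and 7.58 to 13.5 in the thalamus, in the same order of groups. The microglia sums were lowest in GFP-BM REPOP, against the direction of the 4 genes, with ranges clear of WT CON in each region. The border macrophage ranges of GFP-BM REPOP and WT CON overlapped in each region. Their medians were 9.39, 13.5 and 11 FPKM in GFP-BM REPOP against 6.42, 8.17 and 6.08 in WT CON (cortex, hippocampus, thalamus). A single WT CON library made the overlap in the cortex (replicate 1, at 10.2) and in the thalamus (replicate 2, at 14). The part of either list in the levels of the 4 genes was not tested. Of the 7 markers of blood monocytes and neutrophils only *S100a9* has a row, at no more than 2.74 FPKM. In the cortex it was at 0.757 to 0.827 in WT CON, 0.105 to 0.833 in GFP-BM CON and 0.235 to 0.747 in GFP-BM REPOP libraries, so that the last lay below the first, and in the other regions the ranges of all groups overlapped. None of the 4 markers each of B cells and T cells has a row, and of the 4 of mast cells only *Kit*, which neurons also express. The 4 of 5 red cell markers in the table summed to 129 to 703 FPKM, with overlapping ranges in all groups.

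A property of the libraries had its highest group mean in WT CON in each region. The median log2 level of the tenth of genes with the highest GC content minus that of the tenth with the lowest was 2.08 ± 1.14 (SD, n = 4) in WT CON thalamus, against 0.63 ± 0.19 (SD, n = 3) with transplant alone and 0.67 ± 0.20 (SD, n = 4) with repopulation. Hippocampal values were 2.57 ± 0.67, 1.38 ± 0.58 and 1.94 ± 0.55 (SD, n = 4 each), and cortical ones 0.95 ± 0.27 (SD, n = 3), 0.52 ± 0.07 and 0.64 ± 0.25 (SD, n = 4 each). The WT CON range was clear of both transplanted groups in the thalamus and overlapped both in the hippocampus. In the cortex it was clear of GFP-BM CON only (0.76 to 1.25 against 0.43 to 0.58). The 4 genes are poor in GC, from 39.3% for *Ms4a6b* to 43.8% for *Ms4a6d*. After each library was corrected for GC content and length, the thalamus difference of GFP-BM REPOP from WT CON was 3.39 for *Ms4a7*, 2.13 for *Ms4a6c*, 1.02 for *Ms4a6b* and 0.57 for *Ms4a6d*. The same correction turned the thalamus difference of GFP-BM CON from WT CON to -0.35 for *Ms4a6b* and -0.11 for *Ms4a6d*, and brought that of *Ms4a6b* in the hippocampus to 0.18. Corrected cortex values are not given here.

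Over the 34 libraries the Pearson r of log2(FPKM + 0.1) was 0.92 between *Ms4a7* and *Ms4a6c*, 0.88 between *Ms4a7* and *Ms4a6b*, 0.86 between *Ms4a6b* and *Ms4a6c*, and 0.58 to 0.69 between *Ms4a6d* and the others. Because the libraries share groups, r was also taken over the deviations from the 9 group means, where it was 0.39, 0.33, 0.42 and 0.10 to 0.30. The genes most like *Ms4a7* over all libraries were *Gpr65*, a proton-sensing receptor of immune cells (r = 0.93), *Lyz2*, the lysozyme of macrophages (0.93), *Apobec1*, a cytidine deaminase (0.91), *Cybb*, the catalytic subunit of the phagocyte oxidase (0.90), and *C3ar1*, the receptor of complement C3a (0.86). Within groups *Lyz2* remained the most like *Ms4a7* of these, at r = 0.77, and *Apobec1* fell to 0.27. For *Ms4a6c* the genes were *Cybb* (0.94), *Gpr65* (0.93), *Apobec1* (0.92), *Lyz2* (0.91) and *AU020206* (0.91). For *Ms4a6b* they included *Cybb* (0.87), *Nnt* (0.86), the mannose receptor *Mrc1* (0.84) and *Gpr65* (0.84), beside a gene listed by identifier only. For *Ms4a6d* the values over all libraries were lower, with *Apobec1*, *Mpeg1*, *Fcrls* and *Lyz2* at 0.75 and *C3ar1* at 0.73. These values include the differences between groups, which were smallest for *Ms4a6d*. Within groups its r with these genes was 0.46 to 0.61, where that of *Ms4a6b* with the genes most like it was 0.21 to 0.44.

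Relatives of the family in the table were followed as well. *Tmem176a* and *Tmem176b*, which encode related proteins with the same 4-pass layout, were at higher levels than the Ms4a genes in every group. *Tmem176a* in the cortex was at 8.83 ± 0.776 FPKM in WT CON (SD, n = 3), 9.08 ± 0.294 with transplant alone (SD, n = 4) and 12.6 ± 1.67 with repopulation (SD, n = 4). It rose in GFP-BM REPOP against WT CON there, by 0.50 on the log2 scale (standard error 0.09, adjusted p = 0.035 from limma), and differed by 0.46 from GFP-BM CON (adjusted p = 0.14). Between the transplanted groups *Tmem176a* differed by 0.53 in the hippocampus and 0.47 in the thalamus (adjusted p = 0.43 and 1 from limma), in the direction of the 4 genes, and its groups did not overlap in the thalamus. In the cortex *Tmem176b* differed by 0.32 and 0.35 against WT CON and GFP-BM CON (adjusted p = 0.29 and 0.86 from limma). *Ms4a15* had a median of 0.12 FPKM over WT CON libraries, 0.269 with transplant alone and 0.055 with repopulation, with a few libraries far above, up to 35.1 FPKM from 1239 reads in WT CON hippocampus replicate 2. None of its contrasts passed the test.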

How the data were processed

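RNA of 34 libraries, each 1 region of 1 mouse, was measured. The authors deposited FPKM values for 16389 genes. According to the methods and the submitters' notes, reads were aligned with STAR to mm10, counted per gene with featureCounts and scaled with edgeR and limma. Counts were not used here, but for 100.0% of genes the FPKM steps gave whole reads (tolerance 0.001), which came to 17085018 to 26010509 per library, with a median of 21367227. Depth limits low genes most.

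Groups were taken from the labels. Genes with an FPKM of at least 1 in at least 3 libraries (15053) were kept, less 343 of other biotypes, which left 14710. Values were analysed as log2(FPKM + 0.1) with limma 3.58.1 in R 4.3.3 (limma-trend, two-sided, Benjamini-Hochberg adjusted p under 0.05), with 1 fit per region holding 3 groups. Comparisons of regions used all 9 groups with the animal number as a random block (duplicateCorrelation, correlation -0.04). Python 3.11.15 with Biopython was used for sequences and figures, with RefSeq (GRCm38.p6) and GENCODE vM21. The fit was tested on simulated data. The numbers in the labels were taken as animals, and if they are not, p-values measure only a spread between libraries that may be technical.

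Named beside the members were the rest of the Ms4a symbols, *Tmem176a*, *Tmem176b*, for each member the 5 genes with the highest Pearson r, and markers on which a result turns. The members, lists, motifs and tests were chosen with earlier results of these data known. Alternatives were a pseudocount of 1 or 0.01, no or a stricter filter, quantile normalization, median-ratio scaling, all 9 groups or only 2 in a fit, the replicate number as a block, voom on recovered reads, a correction for GC content and length (splines of 5 degrees of freedom), an index of a single gene, no animal block, and leaving out each library. Chosen after the data were seen were leaving out the 3 hippocampus libraries, and leaving out each library in the tests of differences between regions, in the index and in the part of a difference present in GFP-BM CON.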

Additional observations from a re-analysis of the deposited data

Results flagged for a closer look

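In 7 groups of 4 libraries, the levels of the 4 genes and 3 relatives gave 49 sets of values, in 5 of which 1 library stood so far from the rest that the gap to its nearest neighbour, as part of the whole range, passed Dixon's 95% limit. Chance flags about 1 in 20 such sets. *Ms4a6c* was at 0.441 FPKM in WT CON thalamus replicate 1, where the next library was at 0.224. *Ms4a6d* was at 1.67 FPKM in GFP-BM REPOP cortex replicate 4, where the next was at 0.799. *Ms4a15* stood apart in 3 libraries, at 35.1 FPKM in WT CON hippocampus replicate 2 (next 2.99), 11.8 in GFP-BM REPOP hippocampus replicate 1 (next 0.129) and 4.9 in GFP-BM CON cortex replicate 1 (next 0.961). The first 2 of these libraries also had the highest border macrophage sums of their groups, 33.5 and 37.3 FPKM, and were among those low in hippocampal markers, and the part of these in the *Ms4a15* level was not tested.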

How the results depend on the processing

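Set against WT CON, GFP-BM REPOP had the higher level in 264 of 264 alternative values of the 4 genes. The genes were chosen on this contrast and the values are refits of the same libraries, so that nothing is read from this count. Of the 528 alternative values of the 24 tested differences, 521 kept their direction, 13 gained the call and 13 lost it. The median difference of GFP-BM REPOP from WT CON in the cortex (2.37) became 1.05 with a pseudocount of 1, 2.82 with 0.01, 2.79 with voom and 3.96 with a mean FPKM of at least 1, which leaves 1 of the genes, and 2.10 to 2.55 with 1 library left out. In the hippocampus (1.90) it became 0.87 and 3.09 with a pseudocount of 1 and the stricter filter, and 1.79 to 2.01 with 1 library left out. In the thalamus (2.34) it became 1.13, 3.33, 1.90 with quantile normalization and 1.57 with the GC content and length correction, and 2.23 to 2.54 with 1 library left out.

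The count of genes called in the cortex between the transplanted groups (2) became 1 with the stricter filter and 0 with the replicate number as a block, and 0 to 2 with 1 library left out. It includes *Ms4a6c*, which entered the test only through GFP-BM REPOP libraries and is a description. The replicate numbers do not pair animals. Over 32 same-numbered pairs the correlation of deviations was -0.43 to 0.49, and 5 correlated best with their own number. With the replicate block the *Ms4a6d* difference of GFP-BM CON from WT CON in the cortex was -0.12. With all 9 groups in a fit the count (0) became 3 for GFP-BM CON against WT CON in the hippocampus, 2 in the thalamus, and 2 between the hippocampi of the transplanted groups. In the thalamus the latter count (0) became 1 with a pseudocount of 1 and 1 with only the 2 groups compared, and 0 to 1 with 1 library left out. For GFP-BM CON against WT CON it was 0 to 1 in the cortex and 0 to 2 in the thalamus with 1 library left out. Between the hippocampus and cortex of WT CON it became 3 with quantile normalization. How many of all genes tested were called in these alternative fits is not given here. Nothing is therefore read about the family from the changed counts.

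Directions turned for *Ms4a6d* in GFP-BM CON against WT CON in the thalamus, to -0.11 with quantile normalization and -0.11 with the GC content and length correction, and for *Ms4a6b* there, to -0.35 with that correction. With 1 library left out *Ms4a6d* ranged from -0.05 to 0.24 for GFP-BM CON against WT CON in the cortex and from -0.07 to 0.37 between the transplanted groups in the hippocampus. Relative to the pan-myeloid index, the medians of GFP-BM CON against WT CON were 0.51, 0.38 and 0.66 (cortex, hippocampus, thalamus) with a pseudocount of 1 and 1.77, 1.51 and 2.04 with *Csf1r* alone, and those between the transplanted groups were 0.54, 0.42 and 0.55 with a pseudocount of 1. The cause of these changes was not tested. In WT CON, *Ms4a7* rests on 1 to 14 reads per library, so that folds against it are imprecise.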
